A study of Hippophae rhamnoides with 3 samples.

Results

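Leaves of seabuckthorn (Hippophae rhamnoides) held at -10 °C for 6 h were compared with leaves kept at 28 °C, and every gene and tag that the authors listed as different between these libraries is described here. The lists held 4052 genes, out of 7713 genes listed in any of the 3 comparisons of the series, and 15769 tags. No gene was added or left out, and each direction and fold was computed again from the tag counts and the library totals. Plantlets were 30 days old, had reached the six-leaf stage and had been raised from seed in a growth chamber at 28 °C. The freeze stressed group (FS) was placed at -10 °C for 6 h, and the control group (CON) stayed at 28 °C. A cold stressed group (CS, 4 °C for 6 h) of the same age completed the series, and its counts are given beside those of FS and CON wherever a gene was listed with them. Each condition was 1 leaf library, and how many plantlets went into it is not given in the sources used here. All ratios therefore compare libraries, and their 95% intervals cover counting error only.

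Freezing injures leaves mainly by drawing water out of cells as ice forms between them, by damaging membranes and by leaving chloroplasts with more light than their cooled enzymes can use. Plants are known to answer low temperature through calcium signals, protein kinases, abscisic acid and transcription factors of the AP2/ERF family, which switch on genes for protective hydrophilic proteins, sugars, membrane lipids and antioxidants. Photosynthesis proteins come from both the chloroplast genome and the nucleus, and the chloroplast transcripts normally carry no long poly(A) tail.

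DeepSAGE counts a short tag per transcript: mRNA is bound to oligo(dT) beads, the cDNA is cut at CATG, and the CATG with the next 17 bases is sequenced. The implied totals of clean tags were 11908614 in FS, 12010123 in CS and 11566379 in CON, and levels are given as tags per 1000000 clean tags (TPM). A count of 0 was set at 3 tags, which is 0.252 TPM in FS and 0.259 TPM in CON, so that a ratio against it depends on this floor. Such a ratio is not a lower bound. The counting intervals of the named genes at 0 reached closer to equality. For Unigene56818, with 0 tags in CON, the log2 ratio was 5.54 at the floor and the interval began at 5.23. In whole leaves, fewer cells of a type and less RNA per cell cannot be told apart. The deposited table held no gene that changed little, so a share of listed genes can be read only against the other listed genes. The study's methods and the gene IDs name different reference sequences for the tags, so a gene is known here by its ID and the best hit in the table. Of 871 listed genes whose best hit named a protein, 717 had an E-value of at most 1e-20. Some genes named below rest on weaker hits, such as the PIP-type aquaporin Unigene49588 (1.6e-09) and the auxin repressor IAA13 (1.3e-08).

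Tags that carried the main changes are shown first, 5′ to 3′, each the listed sense tag with the most counts that matched its gene alone. Capitals mark the CATG cutting site.
Photosystem II protein D1, Unigene75203: CATGaacgtaatgctcataac
Rubisco large subunit, Unigene43829: CATGtgtacaagctcgtaatg
AP2/ERF factor, Unigene73970: CATGacgataaacaagtgcat
DREB-type factor, Unigene7100: CATGattcagtgcccgaaata
Em protein, Unigene982: CATGaagggtatcaagagatg
Carbonic anhydrase, Unigene114867: CATGtctattccagatgatgg
Plastocyanin, Unigene113891: CATGaaatgctatagtgcttt
PIP-type aquaporin, Unigene49588: CATGggaatctctagcactcc
Brassinosteroid-6-oxidase, Unigene49789: CATGagtgctctcacattgtt
The D1 tag was counted 968 times in FS, 2319 times in CS and 26 times in CON. The DREB-type tag had 72 counts in FS and 101 in CS, against 0 in CON. The plastocyanin tag ran the other way, with 2606 counts in FS, 7113 in CS and 12746 in CON.

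Of the 4052 listed genes, 2278 (56.2%) rose and 1774 (43.8%) fell in FS. The authors listed the genes on these same counts with fold and false discovery limits. That every listed gene had a 95% interval that left out equality is therefore no further support. Against the library totals, 1108 genes (27.3%) rose by a log2 ratio of at least 2, while 367 (9.06%) fell by as much. The median log2 ratio was 1.96 among genes that rose and -1.48 among genes that fell. Of the 871 listed genes whose best hit named a protein, 67.6% rose, which is the share to hold the gene groups against. The rising genes were scarce in CON, with a median of 90 tags in FS against 24 in CON, and the falling genes had a median of 59 tags in FS against 155 in CON. Together, the genes that rose took 5.38% of clean tags in FS and 1.56% in CON, whereas the genes that fell took 2.25% in FS and 6.04% in CON. In CON, 267 of the rising genes had no tag, and in FS 52 of the falling genes had none.

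No spread between plants could be measured with 1 library per condition. When a biological coefficient of variation was assumed in edgeR's exact test, at the p-value limit that all listed genes met by counting error alone, 913 rises (22.5%) and 373 falls (9.21%) remained at 0.2, and 118 rises (2.91%) and 4 falls (0.0987%) at 0.4. Of the 871 listed genes with a named hit, 306 passed at 0.2 and 39 at 0.4. These are the counts to hold the gene groups against. Genes of the 3 chloroplast genome lists weigh on them, since 45 of these passed at 0.2 and 22 at 0.4. Scaling by DESeq2 size factors taken over the listed genes, which lowered every log2 ratio by 1.10, left 1021 genes higher in FS past the fold limit and turned the split to 36.5% higher. It also left 298 genes higher and 1774 lower by a log2 ratio of at least 2. The 1774 are all the listed falls, each already down by about 2-fold or more, so the shift fixed that count in advance. No listed fall could drop out of the split either.

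**Figure D1:**
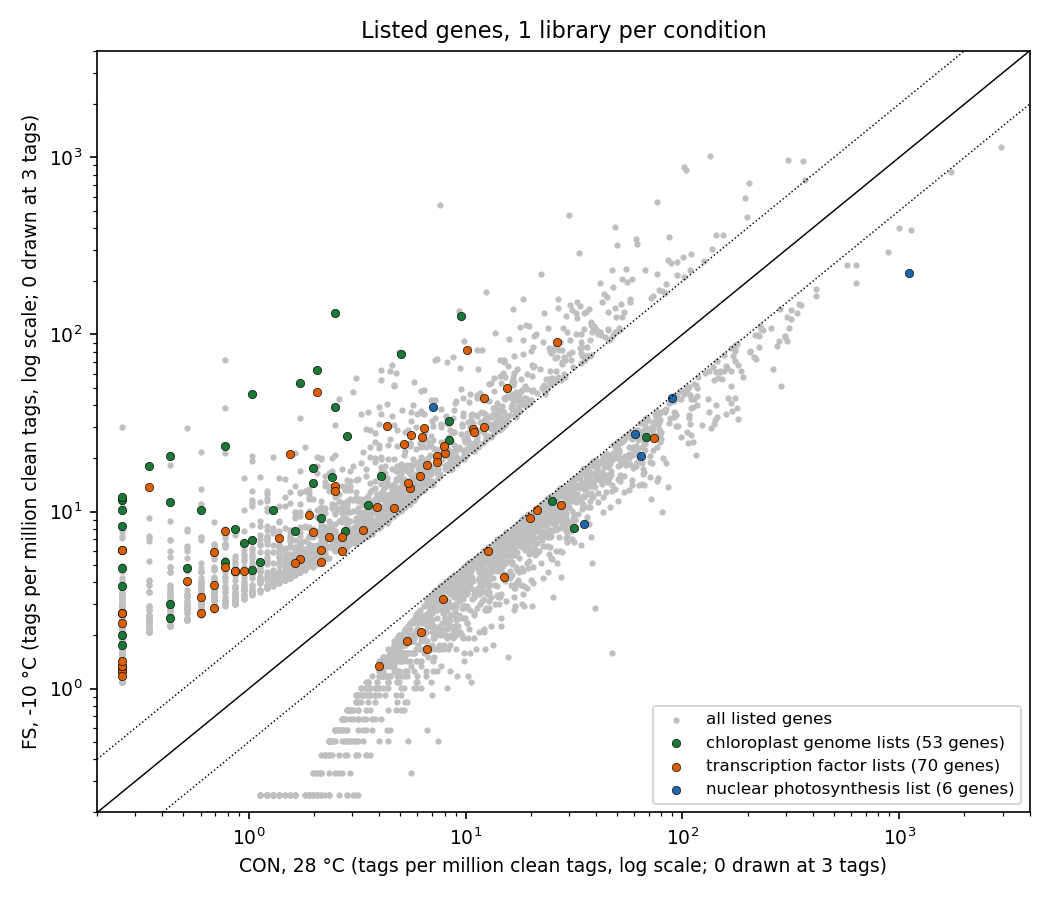
Each point is a listed gene, with its level in FS (vertical axis) and in CON (horizontal axis) in TPM on log scales; the solid line marks equal levels and the dotted lines a 2-fold difference. The 53 genes of the chloroplast genome lists (green) lie mostly far above the line, 50 of them higher in FS, while 5 of the 6 nuclear photosynthesis genes (blue) lie below it.

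Genes encoded in the chloroplast genome rose in FS almost without exception, 50 of 53 over 3 lists. Beside this, 56.2% of all listed genes rose, and 67.6% of those with a named hit. All 19 listed genes for subunits of photosystems I and II, the cytochrome b6f complex and the ATP synthase rose, with a median log2 ratio of 3.73, against 1.18 over all listed genes. Their summed level was 543 TPM in FS and 40.4 TPM in CON. Photosystem II protein D1, the reaction centre protein that is damaged by light and replaced continually, led the list with Unigene75203, at 1573 tags in FS, 2963 in CS and 29 in CON (log2 ratio 5.72, 5.19 to 6.30). A further D1 gene, Unigene10610, had 919 tags in FS, 2157 in CS and 58 in CON (log2 ratio 3.94). The photosystem I apoprotein A1 (Unigene186), which carries the P700 chlorophyll pair, had 549 tags in FS, 517 in CS and 12 in CON (log2 ratio 5.47, 4.66 to 6.44). The alpha subunit of the chloroplast ATP synthase, Unigene16, had the most tags of the list over both libraries, with 1505 in FS, 415 in CS and 110 in CON (log2 ratio 3.73). For D1 the highest count was in CS, and for the ATP synthase subunit it was in FS. The smallest rise of the list was that of cytochrome b6, Unigene43786, with 301 tags in FS, 363 in CS and 97 in CON (log2 ratio 1.59).

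The remaining metabolic genes of the chloroplast also rose, 11 of 11, with a median log2 ratio of 3.21. The large subunit of Rubisco, the carbon-fixing enzyme, was listed as Unigene43829 with 748 tags in FS, 912 in CS and 24 in CON (log2 ratio 4.92, or 6.02 from its most abundant tag alone). It was also listed as Unigene56818 with 144 tags in FS, 184 in CS and none in CON, which is 46.6-fold higher in FS at the floor. Maturase K, which helps to splice chloroplast introns, had 466 tags in FS, 218 in CS and 29 in CON (log2 ratio 3.96). Its most abundant tag alone had 231 in FS and 0 in CON, 74.8-fold higher at the floor. Subunits of the NADH-plastoquinone oxidoreductase, which feeds electrons back into the thylakoid, made up much of the rest, such as subunit J (Unigene19244) at 50 tags in FS, 38 in CS and 2 in CON. Several listed genes shared a best hit, D1 among them, and may be pieces of the same transcript, which was not tested.

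Genes of the chloroplast's own expression machinery and open reading frames rose in 20 of 23 cases. Chloroplast ribosomal protein S16 had 138 tags in FS, 45 in CS and none in CON. At the floor this was 44.7-fold higher in FS, or 8.74-fold from its most abundant tag alone. The beta subunit of the plastid RNA polymerase had 121 tags in FS, 37 in CS and none in CON with Unigene13212 (39.2-fold higher at the floor). With Unigene33793 it had 57 tags in FS, 39 in CS and none in CON (18.5-fold higher at the floor, or 8.42-fold from the most abundant tag alone). The reading frame RF2, Unigene14046, had 72 tags in FS, 70 in CS and none in CON, and RF68 (Unigene39977) had 635 in FS, 516 in CS and 20 in CON. The 3 falls all carried the best hit "hypothetical chloroplast RF1": Unigene40690 had 314 tags in FS, 218 in CS and 787 in CON, Unigene9482 had 96 in FS, 112 in CS and 365 in CON, and Unigene34706 had 137 in FS, 105 in CS and 291 in CON. Another gene, matched to Ycf1, rose, with 135 tags in FS, 110 in CS and 5 in CON. Of the 53 genes in the 3 lists, 45 passed at the assumed coefficient of variation of 0.2 and 22 at 0.4. Beside this, 1286 and 122 of all 4052 listed genes passed, and 306 and 39 of the 871 with a named hit.

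Tags of the chloroplast genes lay at many cutting sites along the gene. The listed sense tags that matched photosystem I apoprotein A1 alone are shown, each named by its CATG site counted from the 3′ end of the gene. None of them is the last site. They do not make up all tags of the gene, since tags that were not listed cannot be shown. Capitals again mark the CATG.
Site 4: CATGctttagcacccagtgca
Site 5: CATGcagccatttttatggta
Site 7: CATGctcaattatctattaac
Site 9: CATGgtataaaagatatatta
Site 11: CATGaatttatcttgaataga
Site 12: CATGtatctttaccgattaac
Site 13: CATGgctaagcgatcctactc
Of the sites shown, site 7 gave the most, with 162 tags in FS, 38 in CS and 0 in CON. Site 4 gave 91 tags in FS, 114 in CS and 0 in CON. The other sites shown gave between 16 and 45 tags in FS and between 0 and 5 in CON. Over all genes of the chloroplast lists, 23 of the 60 sense tags that rose, or 38.3% (exact interval 26.1% to 51.8%), came from the last CATG site. In the other genes that share was 1508 of 2031 tags, or 74.2% (72.3% to 76.1%). Tags of a gene are not independent, and the number of sites per gene was not taken into account. Of the 63 listed sense tags that matched chloroplast genes alone, 60 rose, beside 48.1% of all listed sense tags. On the opposite strand, 55 listed tags matched chloroplast genes alone, and all 55 rose, beside 47.7% of all listed antisense tags. The D1 gene Unigene10610 had an antisense tag counted 1534 times in FS, 824 in CS and 13 in CON.

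**Figure D2:**
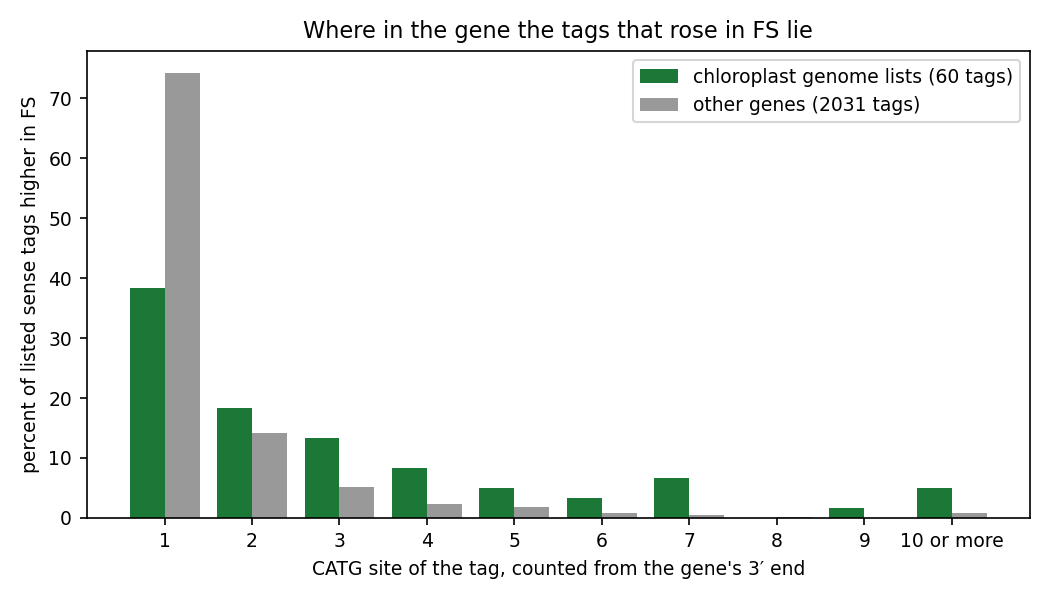
Bars give the percent of the listed sense tags that rose in FS by the CATG site they come from, where site 1 is the last before the 3′ end; green bars are the chloroplast genome lists (60 tags) and grey bars the other genes (2031 tags). Site 1 holds 38.3% of the chloroplast tags and 74.2% of the others, and the tags reach as far as site 13 in the chloroplast lists and site 18 in the others.

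Nuclear genes of the light reactions went down in 5 of 6 cases (16.7% rose, beside 67.6% of the genes with a named hit). Of the 6, 4 passed at the assumed coefficient of variation of 0.2 and 0 at 0.4, beside 306 and 39 of the 871 genes with a named hit. Plastocyanin, the copper protein that carries electrons between cytochrome b6f and photosystem I, had 2639 tags in FS, 7179 in CS and 12892 in CON (log2 ratio -2.33, -2.39 to -2.27), the most tags of the list. The photosystem I subunit III (Unigene115689) had 245 tags in FS, 378 in CS and 744 in CON. Photosystem II 22 kDa protein, which is needed for the release of excess light as heat, had 519 tags in FS, 382 in CS and 1041 in CON. A chlorophyll a/b binding protein, Unigene116240, had 327 tags in FS, 725 in CS and 697 in CON. The only rise of the list was a 14 kDa thylakoid membrane phosphoprotein, at 466 tags in FS, 230 in CS and 82 in CON (log2 ratio 2.46).

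The Calvin cycle, Rubisco activation and photorespiration list held few genes, and all 3 rose, beside 67.6% of the genes with a named hit. Of the 3, 1 passed at the assumed coefficient of variation of 0.2, beside 306 of the 871 genes with a named hit. Chloroplast carbonic anhydrase, which interconverts CO2 and bicarbonate, had 11521 tags in FS, 1189 in CS and 3550 in CON (log2 ratio 1.66, 1.60 to 1.71), so its count in CS was the lowest of the 3 libraries. A phosphoglycerate kinase (Unigene71888), whose best hit names no compartment, had 58 tags in FS, 12 in CS and 19 in CON. Mitochondrial serine hydroxymethyltransferase, an enzyme of photorespiration, had 57 in FS, 10 in CS and 21 in CON. All 3 counts were lower in CS than in CON, but those of the kinase and the transferase rest on few tags, and the difference was not tested. In pigment synthesis, 4 of 6 genes rose (66.7%, close to the 67.6% of genes with a named hit). Phytoene dehydrogenase, an early enzyme of carotenoid synthesis, had 165 tags in FS, 41 in CS and 26 in CON (log2 ratio 2.62), whereas glutamyl-tRNA reductase, the entry enzyme to chlorophyll, had 93 in FS, 69 in CS and 234 in CON (log2 ratio -1.37). Carotenoid cleavage dioxygenase 1 had no tag in FS, 13 in CS and 15 in CON.

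**Figure D3:**
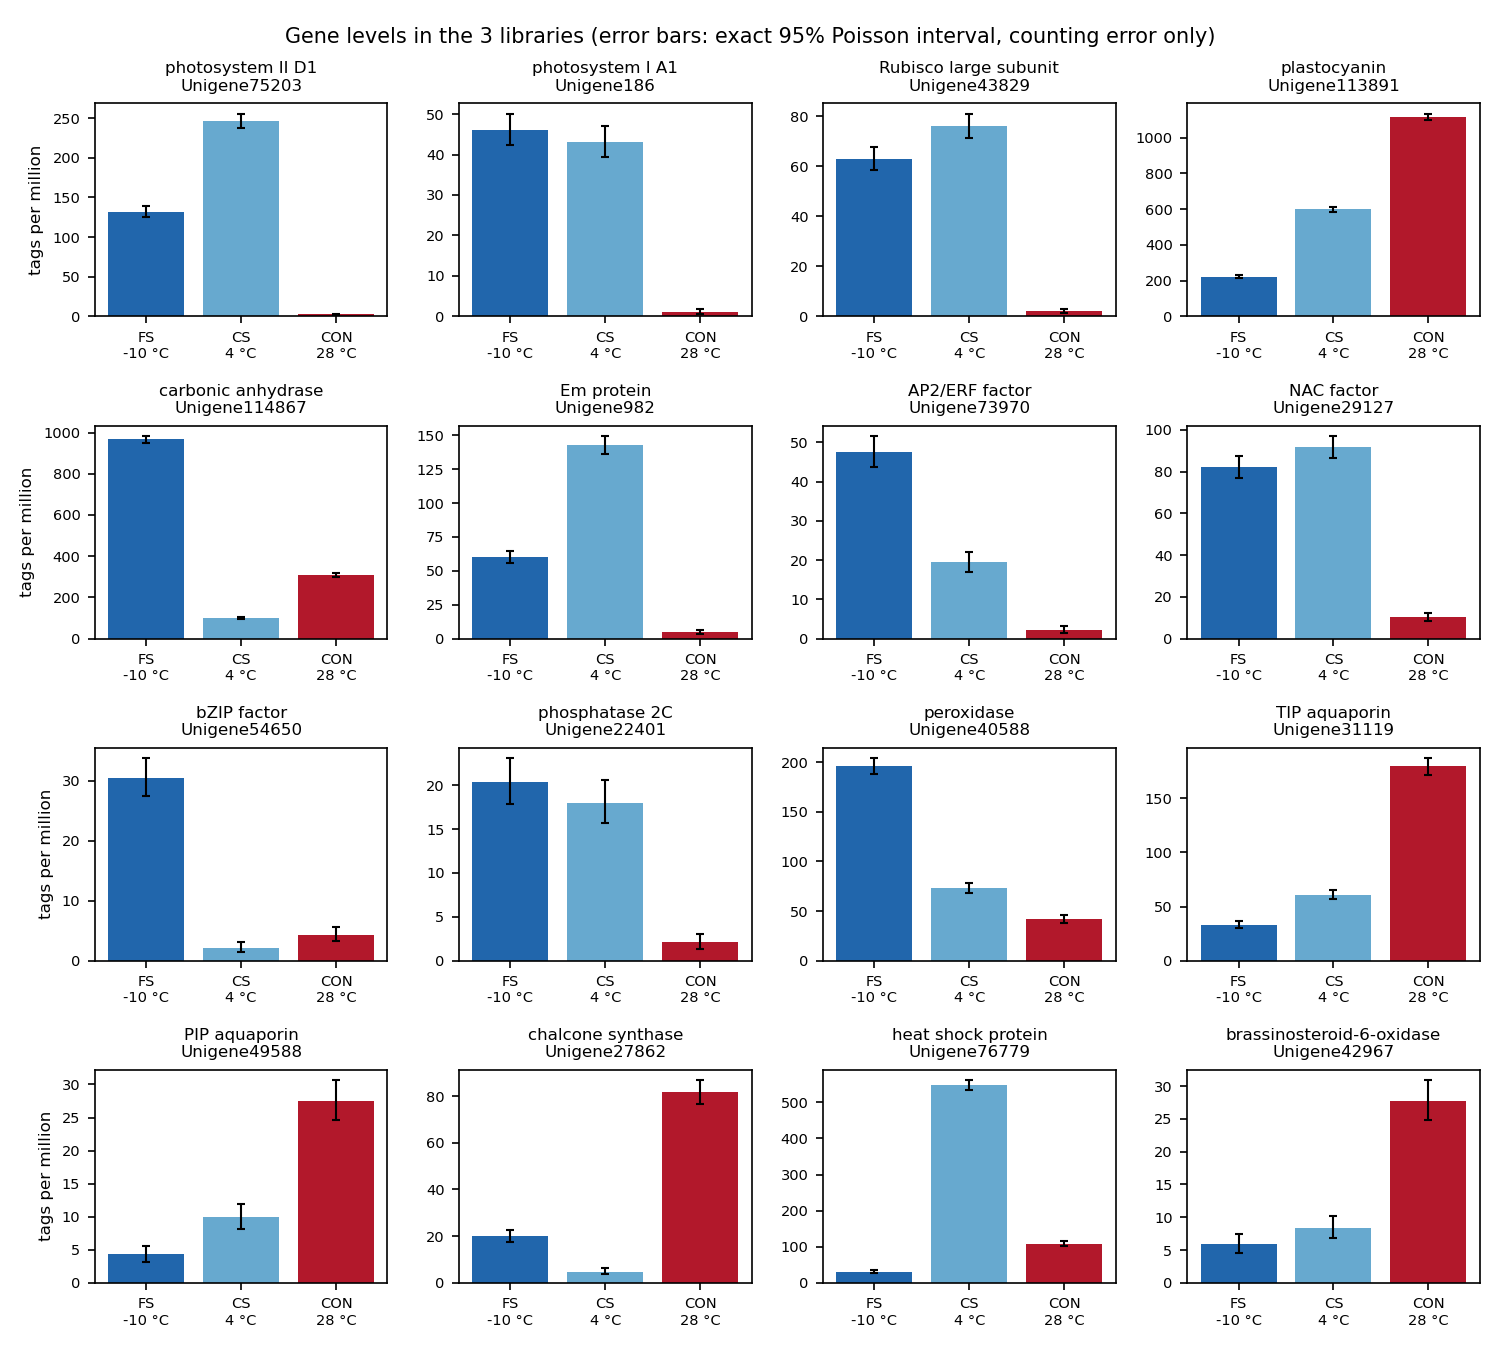
Bars give the level of 16 genes in FS, CS and CON in TPM, with exact 95% Poisson intervals for counting error, 1 library each. D1, Em protein and the heat shock protein were highest in CS, carbonic anhydrase, the bZIP factor and peroxidase stood out in FS, and plastocyanin and both aquaporins were highest in CON and lowest in FS.

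Dehydrin, LEA and cold-induced proteins rose in all 8 listed cases, with a median log2 ratio of 1.46. Of the 8, 2 passed at the assumed coefficient of variation of 0.2, beside 306 of the 871 genes with a named hit. Em protein, a late embryogenesis abundant (LEA) protein of drying seeds, had 717 tags in FS, 1716 in CS and 55 in CON (log2 ratio 3.66, 3.27 to 4.09). LEA14-A had 758 tags in FS, 580 in CS and 132 in CON (log2 ratio 2.48), and a LEA76-type gene (Unigene7845) had 179 in FS, 820 in CS and 58 in CON. Only LEA14-A of these was higher in FS than in CS. The list also took in 2 remorins, which organise patches of the plasma membrane, a thaumatin-like protein and an ERD6-like sugar transporter, the last with 185 tags in FS, 63 in CS and 86 in CON. A basic 7S globulin (Unigene18515), named for a seed protein, had 678 tags in FS, 1103 in CS and 36 in CON (log2 ratio 4.19). It belonged to a list of root, seed and pollen markers whose 6 members all rose, among them 3 genes with a best hit to a pollen allergen of the expansin family, led by Unigene76069 with 1579 tags in FS, 1204 in CS and 405 in CON. The 6 members summed to 248 TPM in FS and 49.9 TPM in CON, and their part in the other changes was not tested.

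Transcription factor genes rose in 59 of 70 cases over the 5 families, beside 67.6% of the genes with a named hit. Of the 70, 34 passed at the assumed coefficient of variation of 0.2 and 7 at 0.4, beside 306 and 39 of the 871 genes with a named hit. In the AP2/ERF family, which holds the DREB and CBF regulators of the cold response, 9 of 10 rose with a median log2 ratio of 2.24. An AP2/ERF gene, Unigene73970, had 567 tags in FS, 234 in CS and 24 in CON (log2 ratio 4.52, 3.93 to 5.17). The DREB-type Unigene7100, a class that binds the drought and cold responsive element, had 72 tags in FS, 101 in CS and none in CON. At the floor this was 23.3-fold higher in FS. TINY, a related factor, had 252 tags in FS, 176 in CS and 18 in CON. The exception was Unigene44323, at 122 tags in FS and 247 in CON.

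NAC factors, a plant family with many stress and senescence regulators, rose in 16 of 19 cases (84.2%, beside 67.6% of the genes with a named hit). Unigene29127 had the largest rise with at least 10 tags in both libraries and the most tags, at 979 in FS, 1101 in CS and 118 in CON (log2 ratio 3.01, 2.73 to 3.30). The strongest NAC fall was Unigene62088, with 25 tags in FS, 26 in CS and 72 in CON. In the WRKY family, known from defence, 7 of 9 rose (77.8%, beside the same 67.6%). Of the 9, 2 had a best hit with an E-value of at most 1e-20. Among genes with at least 10 tags in both libraries the rises were led by Unigene8252, at 316 tags in FS, 436 in CS and 73 in CON. WRKY 26 had the most tags, at 1081 in FS, 776 in CS and 306 in CON. In these 3 rising genes the CS count was closer to that of FS, whereas the NAC gene Unigene63685 had 173 tags in FS, 70 in CS and 63 in CON.

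Zinc finger, GRAS, homeobox and bZIP factors rose in 22 of 25 cases (88.0%, beside 67.6% of the genes with a named hit). The median log2 ratio of the list was 2.28. A bZIP factor, Unigene54650, had 364 tags in FS, 26 in CS and 50 in CON (log2 ratio 2.82, 2.39 to 3.28), so that only FS was high. Its most abundant tag alone gave a log2 ratio of 4.51. A homeodomain factor, Unigene47625, had 164 tags in FS, 95 in CS and 4 in CON. The bZIP gene Unigene28510 fell, with 311 tags in FS, 214 in CS and 859 in CON (log2 ratio -1.51). Among MYB and bHLH factors 5 of 7 rose (71.4%, close to that 67.6%). MYB60-like Unigene56240, whose namesake acts in guard cells of Arabidopsis, had 55 tags in FS and 10 in CON, and an R2R3-MYB gene, Unigene31442, had 51 in FS, 156 in CS and 174 in CON. Clock and light signalling genes were split, 3 up and 2 down. Pseudo-response regulator 5, a clock repressor, had 83 tags in FS, 26 in CS and 18 in CON with Unigene51540 and 21 in FS and none in CON with Unigene10280, while pseudo-response regulator 7 had 6 in FS and 27 in CON. An A-type response regulator of the cytokinin pathway (Unigene40434) had 62 tags in FS, 14 in CS and 16 in CON. CONSTANS-like Unigene15644, of a family that reads day length, had 403 tags in FS and 792 in CON.

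The abscisic acid list was made up mainly of genes named for protein phosphatases 2C, a family with members that switch off kinases of the pathway. Which of the listed genes act there is not given by their best hits. In that list 9 of 10 genes rose (90.0%, beside 67.6% of the genes with a named hit), with a median log2 ratio of 2.04. Of the 10, 4 passed at the assumed coefficient of variation of 0.2 and 0 at 0.4, beside 306 and 39 of the 871 genes with a named hit. Unigene22401 had 243 tags in FS, 216 in CS and 24 in CON (log2 ratio 3.30, 2.69 to 3.97), and Unigene34379 had the most tags, 536 in FS and 180 in CON (log2 ratio 1.53, or 2.50 from its most abundant tag alone). A SAPK1-like kinase, Unigene17584, also rose, at 81 tags in FS, 85 in CS and 21 in CON. Its name alone does not place it in the pathway. The member that fell was carotenoid cleavage dioxygenase 1, already given, which cuts carotenoids into volatile products rather than abscisic acid.

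Calcium sensors and calcium-dependent kinases went both ways, with 13 of 21 higher (61.9%, beside 67.6% of the genes with a named hit). Calcium-dependent protein kinase 32 had the most tags, at 1079 in FS, 521 in CS and 263 in CON (log2 ratio 1.99). A calmodulin-binding protein, Unigene35111, had 587 tags in FS, 54 in CS and 110 in CON, while another, Unigene17625, had 194 in FS, 192 in CS and 764 in CON (log2 ratio -2.02). A cyclic nucleotide gated channel, a possible path for calcium entry, had 83 tags in FS, 20 in CS and 14 in CON. In the separate list of MAP kinases and other protein kinases, 20 of 33 rose (60.6%, exact interval 42.1% to 77.1%). That share was below the 67.6% of genes with a named hit, which the interval takes in. APK1A-like Unigene28447 had 2756 tags in FS, 885 in CS and 545 in CON (log2 ratio 2.30, 2.16 to 2.43), and APK1B-like Unigene36570 had 283 in FS, 247 in CS and 51 in CON. The strongest fall in this list with at least 10 tags in both libraries was not a kinase but serine/threonine protein phosphatase 1, with 94 tags in FS, 65 in CS and 303 in CON (log2 ratio -1.73, or -2.54 from its most abundant tag alone). Receptor-like kinases rose in 8 of 12 cases, or 66.7%, beside 67.6% of the genes with a named hit. FERONIA, a receptor that senses the state of the cell wall, had 452 tags in FS, 167 in CS and 201 in CON, a wall-associated kinase (Unigene43108) had 73 in FS, 58 in CS and 19 in CON, and a nodulation receptor kinase homologue had 31 in FS, 35 in CS and 102 in CON.

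Hormone genes other than those of abscisic acid were mixed. In the jasmonate branch, 12-oxophytodienoate reductase, which makes the jasmonic acid precursor, had 971 tags in FS, 1065 in CS and 130 in CON (log2 ratio 2.86, 2.59 to 3.13), and allene oxide synthase had 279 in FS, 156 in CS and 56 in CON. Lipoxygenase LOX2, at the head of that branch, was lower, with 291 tags in FS, 575 in CS and 1223 in CON (log2 ratio -2.11). A jasmonate ZIM-domain repressor, Unigene29230, had 592 tags in FS and 1345 in CON, whereas a second gene of the type, Unigene17653, had 158 in FS, 259 in CS and 32 in CON. EDS1 and PAD4, partners in salicylate-dependent defence, rose, PAD4 with 154 tags in FS, 136 in CS and 42 in CON. In all, 13 of 19 genes of the ethylene, jasmonate and salicylate list rose (68.4%, beside 67.6% of the genes with a named hit).

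Auxin genes rose in 12 of 16 cases (75.0%, exact interval 47.6% to 92.7%), an interval that takes in the 67.6% of genes with a named hit. An influx carrier (Unigene24737) had 343 tags in FS, 47 in CS and 63 in CON (log2 ratio 2.40), while an efflux facilitator (Unigene44519) had 26 in FS, 35 in CS and 120 in CON (log2 ratio -2.25). The repressor IAA13 had the most tags, 897 in FS and 435 in CON. Both genes for brassinosteroid-6-oxidase, which makes the active hormone, fell: Unigene49789 had 11 tags in FS, 8 in CS and 81 in CON (log2 ratio -2.92, -3.98 to -2.01), and Unigene42967 had 70 in FS, 100 in CS and 321 in CON. Gibberellin 3-oxidase, the last step to active gibberellin, had 7 tags in FS and 31 in CON. The brassinosteroid-regulated gene BRU1 rose, with 211 tags in FS, 510 in CS and 60 in CON. The list also held a corticosteroid 11-beta-dehydrogenase and a steroid binding protein, which no source here ties to a plant hormone.

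Sugar genes, whose products serve as compatible solutes and energy stores, rose in 15 of 21 cases (71.4%, beside 67.6% of the genes with a named hit). Starch branching enzyme, Unigene3544, had 427 tags in FS, 790 in CS and 112 in CON (log2 ratio 1.89). Trehalose-6-phosphate synthase, which makes a sugar signal, had 85 tags in FS, 8 in CS and 7 in CON with Unigene21606, and 48 in FS and 4 in CON with Unigene47469. Sucrose phosphate synthase rose with both listed genes, at 44 tags in FS and 12 in CON, and at 56 in FS, 209 in CS and 21 in CON. Stachyose synthase of the raffinose family fell, at 39 tags in FS and 127 in CON, as did alpha-glucan water dikinase, which opens starch to breakdown, at 45 in FS, 108 in CS and 119 in CON. An inositol monophosphatase had 16 tags in FS, 61 in CS and 65 in CON. The keyword list also took in inositol kinases and galactosyltransferases of glycolipids, whose names do not place them in sugar storage. In amino acid and polyamine metabolism 10 of 15 rose (66.7%), close to that 67.6%. Both arginine decarboxylase genes, which start polyamine synthesis, were higher, with 54 tags in FS and 15 in CON for Unigene29828. Serine acetyltransferase 1, at the entry to cysteine, had 307 tags in FS, 118 in CS and 114 in CON, and a proline transporter had 12 in FS, 5 in CS and 51 in CON. A small list of genes known from dark or starved leaves rose in 4 of 4 cases: asparagine synthetase had 71 tags in FS, 62 in CS and 22 in CON with Unigene18412, and 16 in FS, 24 in CS and 0 in CON with Unigene86848, and a branched chain amino acid transaminase had 17 in FS, 15 in CS and 0 in CON. The remaining member, SEN1 with 117 tags in FS, 139 in CS and 51 in CON, was a splicing endonuclease factor and not the senescence gene of that name.

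Energy metabolism rose in 13 of 14 cases, with a median log2 ratio of 1.68. Of the 14, 2 passed at the assumed coefficient of variation of 0.2, beside 306 of the 871 genes with a named hit. NADP-malate dehydrogenase, which exports reducing power from the chloroplast, had 1233 tags in FS and 481 in CON (log2 ratio 1.32). Pyruvate decarboxylase, the first enzyme of ethanol fermentation, had 272 tags in FS, 315 in CS and 94 in CON, and an alcohol dehydrogenase (Unigene34884) had 80 in FS, 38 in CS and 29 in CON. An NADH dehydrogenase 2-like reading frame had 242 tags in FS, 153 in CS and 42 in CON (log2 ratio 2.48, or 1.69 from its most abundant tag alone). The fall was COX19, an assembly factor of cytochrome c oxidase, at 25 tags in FS and 88 in CON.

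Membrane lipid genes were divided, 10 up and 9 down (52.6% up, beside 67.6% of the genes with a named hit). A desaturase fused to cytochrome b5 had the most tags, at 1394 in FS, 1301 in CS and 439 in CON (log2 ratio 1.62). Chloroplast omega-3 desaturase, which makes the trienoic fatty acids of thylakoids, had 24 tags in FS, 22 in CS and none in CON. At the floor this was 7.77-fold higher in FS. A diacylglycerol kinase, Unigene14931, had 374 tags in FS, 574 in CS and 89 in CON. Both ceramidases and a sphingolipid desaturase fell, the ceramidase Unigene32852 with 30 tags in FS, 241 in CS and 106 in CON, and a lipase (Unigene46945) had 11 in FS and 39 in CON. Outside the list, squalene epoxidase of the sterol pathway had 163 tags in FS, 235 in CS and 994 in CON (log2 ratio -2.65, -2.90 to -2.41), and a GDSL lipolytic enzyme had 609 in FS, 1016 in CS and 3290 in CON (log2 ratio -2.48).

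Cell wall genes rose in 17 of 26 cases (65.4%, beside 67.6% of the genes with a named hit), but the 2 most abundant members fell. Cellulose synthase-like CslE had 2161 tags in FS, 4384 in CS and 4803 in CON (log2 ratio -1.19), and alpha-expansin 4, which loosens walls, had 884 in FS, 1079 in CS and 2463 in CON. A xyloglucan endotransglucosylase/hydrolase, which cuts and rejoins wall polymers, had 128 tags in FS, 136 in CS and 3 in CON. Endo-1,4-beta-mannosidase had 170 tags in FS, 45 in CS and 23 in CON, the largest rise with at least 10 tags in both libraries, and a glucan endo-1,3-beta-glucosidase had 21 in FS, 3 in CS and 98 in CON. Because of the abundant members, the list summed to 564 TPM in FS and 792 TPM in CON.

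Transporters rose in 27 of 50 cases (54.0%, exact interval 39.3% to 68.2%), a lower share than the 67.6% of genes with a named hit, though its interval takes that share in. Aquaporins, the water channels of plant membranes, were part of this list, and those given here include members picked after their values were seen. The TIP-type Unigene31119, of the vacuolar membrane, had 397 tags in FS, 731 in CS and 2077 in CON (log2 ratio -2.43, -2.59 to -2.27). The PIP-type Unigene49588, of the plasma membrane, had 51 tags in FS, 119 in CS and 318 in CON (log2 ratio -2.68), and plasma intrinsic protein 2,1 had 75 in FS and 164 in CON. A nodulin-26 homologue, from a further aquaporin family, rose, with 69 tags in FS, 20 in CS and 24 in CON. Nitrate transporters showed both directions: Unigene3217 had no tag in FS, 21 in CS and 22 in CON, and Unigene52916 had 41 in FS, 53 in CS and none in CON. A multidrug resistance ABC transporter, Unigene34347, had 0 tags in FS and 15 in CON.

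Antioxidant genes rose in 12 of 14 cases (85.7%, beside 67.6% of the genes with a named hit), with a median log2 ratio of 2.08. Of the 14, 4 passed at the assumed coefficient of variation of 0.2 and 0 at 0.4, beside 306 and 39 of the 871 genes with a named hit. A peroxidase, Unigene40588, had 2337 tags in FS, 880 in CS and 483 in CON (log2 ratio 2.23, 2.09 to 2.38), and another (Unigene28754) had 77 in FS, 26 in CS and 13 in CON. Catalase, which breaks down hydrogen peroxide, had 75 tags in FS, 56 in CS and 9 in CON, and ascorbate peroxidase had 49 in FS and 16 in CON. Dehydroascorbate reductase, which recycles ascorbate, fell, at 19 tags in FS, 20 in CS and 61 in CON. The other fall was the copper chaperone of superoxide dismutase, at 158 tags in FS, 424 in CS and 653 in CON.

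Heat shock proteins and chaperones were split, 11 up and 8 down (57.9% up, beside 67.6% of the genes with a named hit). All 3 genes named for HSP70 rose, such as Unigene114100 with 200 tags in FS, 288 in CS and 48 in CON (log2 ratio 2.02), and so did a ClpB chaperone with 36 in FS, 45 in CS and 7 in CON. Both genes named as small heat shock proteins, which hold unfolding proteins, fell: Hsp20.1 had 141 tags in FS, 795 in CS and 276 in CON, and Unigene27932 had 13 in FS, 163 in CS and 45 in CON. A heat shock protein of unnamed class, Unigene76779, had 370 tags in FS, 6591 in CS and 1257 in CON. All 3 of these were lowest in FS and highest in CS. The remaining falls included the superoxide dismutase chaperone and 2 chloroplast-targeted copper chaperones, of which Unigene11498 had 354 tags in FS, 409 in CS and 1563 in CON (log2 ratio -2.18) and Unigene22299 had 8 in FS, 11 in CS and 47 in CON.

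**Figure D4:**
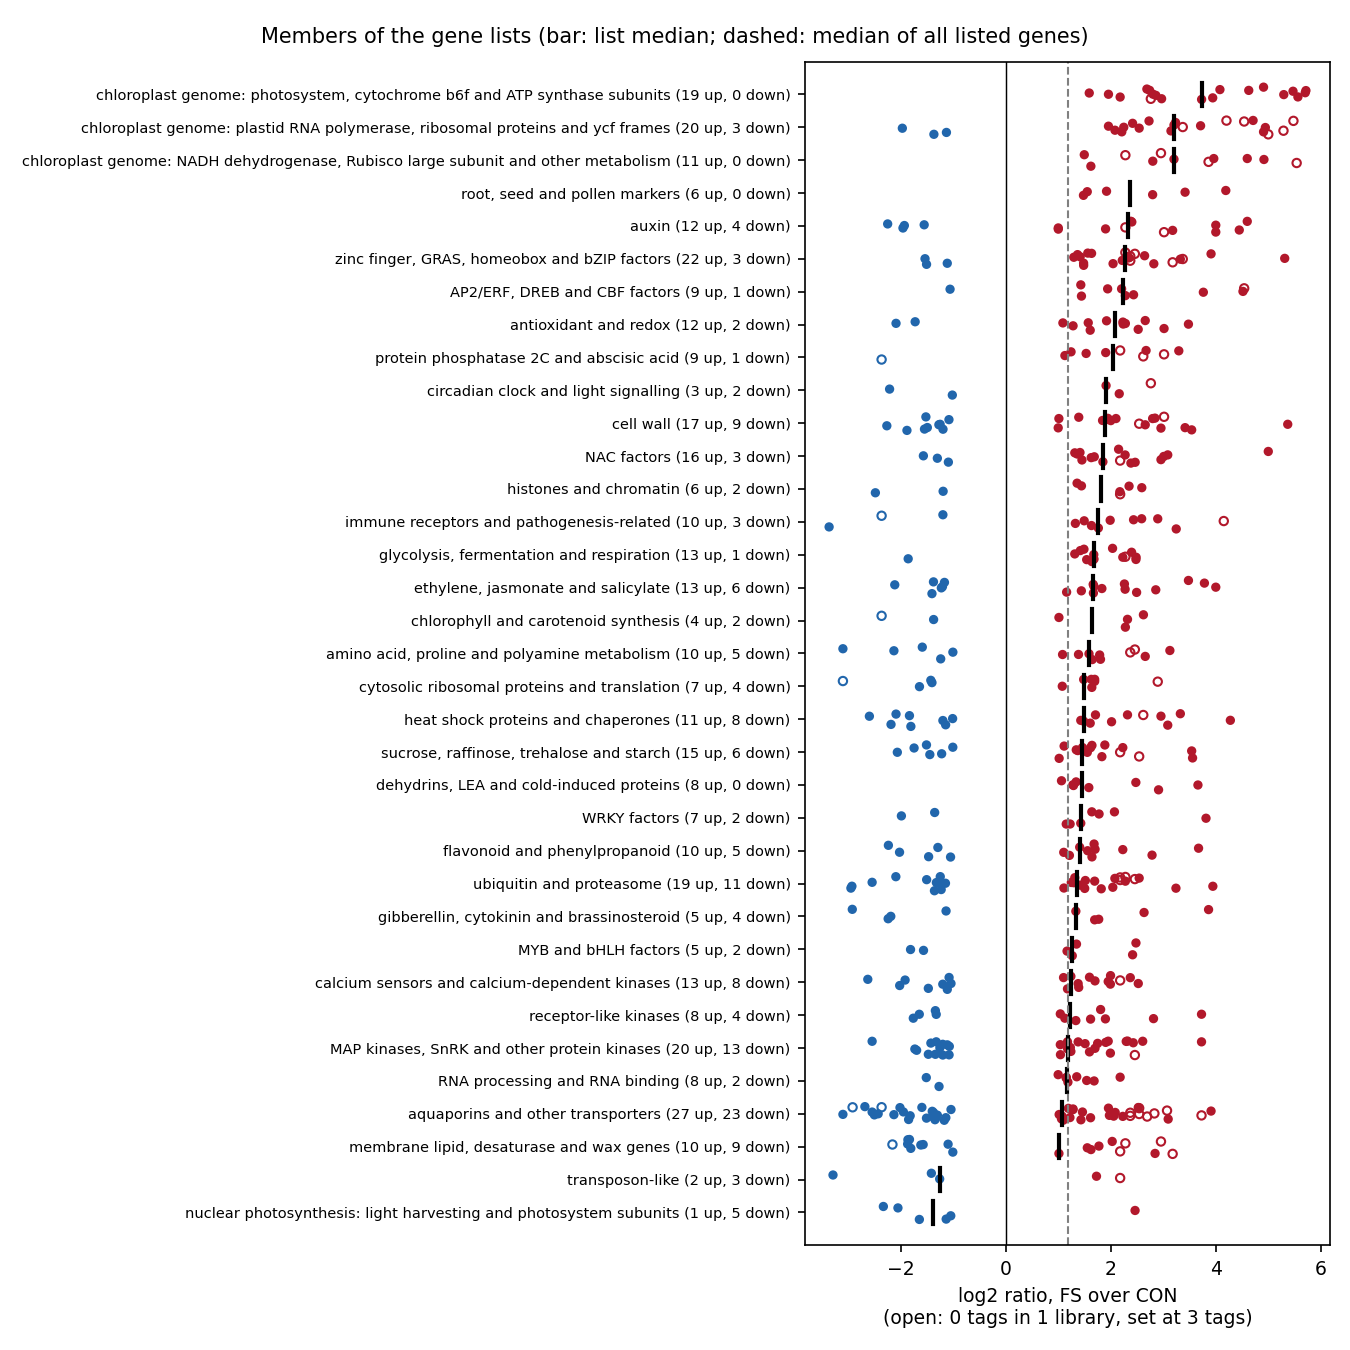
Each point is a member of a gene list with at least 5 listed genes, placed by its log2 ratio of FS over CON; open points had 0 tags in 1 library and were set at 3 tags, black bars are list medians and the dashed line is the median of all listed genes, 1.18. The chloroplast genome lists stand at the top with medians of 3.73, 3.21 and 3.21, and nuclear photosynthesis at the bottom with -1.39.

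Flavonoid and phenylpropanoid genes rose in 10 of 15 cases (66.7%, beside 67.6% of the genes with a named hit), and the genes near the start of flavonoid synthesis were among the falls. Both chalcone synthase genes, the entry to flavonoids, were lower: Unigene27862 had 239 tags in FS, 57 in CS and 943 in CON (log2 ratio -2.02, -2.23 to -1.82), and Unigene17948 had 193 in FS, 147 in CS and 459 in CON. p-Coumarate:CoA ligase, just before it, had 227 tags in FS and 610 in CON. On the side of lignans and lignin, a pinoresinol-lariciresinol reductase homologue had 276 tags in FS, 223 in CS and 21 in CON (log2 ratio 3.67, 3.03 to 4.39). Its most abundant tag alone had 143 in FS and 0 in CON, 46.3-fold higher at the floor. Hydroxycinnamoyl transferase had 192 in FS, 81 in CS and 27 in CON. The count of EPSP synthase, an enzyme of the shikimate pathway that supplies both branches, was 0 in FS and 15 in CON. A cytochrome P450, Unigene35670, had 1607 tags in FS, 231 in CS and 108 in CON (log2 ratio 3.85), and its substrate is not given by its best hit.

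Protein turnover genes rose in 19 of 30 cases (63.3%, beside 67.6% of the genes with a named hit). A ubiquitin family gene, Unigene100364, had 746 tags in FS, 147 in CS and 47 in CON (log2 ratio 3.95), although its most abundant tag matching it alone gave 2.15. An F-box gene, Unigene44107, of the class that selects targets for ubiquitin ligases, had 12 tags in FS, 65 in CS and 68 in CON, and a SUMO ligase had the most tags among the falls, at 312 in FS, 845 in CS and 719 in CON (log2 ratio -1.25, or -2.26 from its most abundant tag alone). Other strong falls were a subunit of the mitochondrial inner membrane protease, with 12 tags in FS, 45 in CS and 72 in CON, and serine carboxypeptidase SCPL34, with 25 in FS, 24 in CS and 141 in CON. Translation genes rose in 7 of 11 cases (63.6%): a translation initiation factor had 1228 tags in FS and 565 in CON, initiation factor iso4G had 40 in FS and 12 in CON, ribosomal protein L3 had 92 in FS, 63 in CS and 279 in CON, and L30 had 0 in FS and 25 in CON. The hits to L3 and L30 were weak, at E-values of 1.6e-06 and 1.7e-06. For RNA processing the count was 8 of 10 (80.0%), and 0 of the 10 passed at the assumed coefficient of variation of 0.2. Examples were a chloroplast ribonucleoprotein at 182 tags in FS, 41 in CS and 55 in CON, a pentatricopeptide repeat protein at 584 in FS, 161 in CS and 222 in CON, and spliceosomal Sm D1 at 35 in FS, 84 in CS and 97 in CON.

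Chromatin genes rose in 6 of 8 cases (75.0%, exact interval 34.9% to 96.8%), an interval that takes in the 67.6% of genes with a named hit. A methyl binding domain protein, which reads DNA methylation, had 897 tags in FS, 166 in CS and 193 in CON (log2 ratio 2.17, or 3.85 from its most abundant tag alone), and a SET domain protein, of the family that methylates histones, had 118 in FS, 57 in CS and 19 in CON. A histone gene, Unigene7624, had 14 tags in FS, 7 in CS and 76 in CON (log2 ratio -2.48). Brother of FT and TFL1, a relative of the flowering signal FT, had 11 tags in FS, 13 in CS and 58 in CON. Retroelement-like genes were divided, 2 up and 3 down: the polyprotein gene Unigene37744 had 140 tags in FS, 191 in CS and 41 in CON, a gag-pol gene had 14 in FS and 0 in CON, Unigene34319 had 127 in FS, 290 in CS and 295 in CON, Unigene80561 had 76 in FS, 220 in CS and 197 in CON, and a Ty3-gypsy-like gene had 2 in FS and 19 in CON. Immune receptor and pathogenesis genes rose in 10 of 13 cases (76.9%, beside 67.6% of the genes with a named hit). A hairpin-inducing protein had 137 tags in FS, 259 in CS and 14 in CON (log2 ratio 3.25), a CC-NBS-LRR receptor had 209 in FS, 192 in CS and 72 in CON, and a disease resistance gene, Unigene24579, had 62 in FS and 138 in CON (log2 ratio -1.20, or -3.04 from its most abundant tag alone). Of the falls in that list, 2 were multidrug resistance transporters.

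A small number of further genes were at the ends of the table. A 21 kDa protein precursor had 35 tags in FS, 89 in CS and 195 in CON, and a haloacid dehalogenase had 0 in FS and 15 in CON. The 4 falls that passed at the assumed coefficient of variation of 0.4 were picked after their values were seen. Unigene52019, without a hit, had 19 tags in FS, 56 in CS and 545 in CON (log2 ratio -4.88), and Unigene33780, matched to a tobacco hypothetical protein, had 34 in FS, 57 in CS and 456 in CON (log2 ratio -3.79). The other 2, Unigene71679 and Unigene10660, had 0 tags in FS, against 35 and 33 in CON. Unigene71679 had 9 tags in CS. Of all listed genes, 1301 had no hit at all.

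Among Gene Ontology process terms, genes with any term rose in 63.9% of 1284 cases. Genes annotated with response to hormone stimulus rose in 40 of 50 cases, defense response in 28 of 35 and response to osmotic stress in 22 of 28. Response to stress as a whole gave 56 of 76. Transport was at 33 of 62, modification-dependent protein catabolism at 10 of 21 and DNA metabolic process at 6 of 17, the lowest share of the terms with at least 15 genes. Among cell component terms, the chloroplast thylakoid gave 50 of 65 and the plastid stroma 43 of 57, beside 59.8% of the 1314 genes with any such term.

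At the level of tags, 8082 of 15769 (51.3%) rose and 7687 (48.7%) fell. Sense tags rose in 2157 of 4488 cases and antisense tags in 1887 of 3953. No gene was matched by 7328 listed tags, of which 4038 rose, and these unmatched tags took 14.7% of clean tags in FS and 12.7% in CON.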

How the data were processed

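Leaf libraries of FS, CS and CON (1 each) were made with the Illumina tag kit. The authors removed adaptor, low quality and single-copy tags, matched clean tags to gene sequences (the submitters' notes name Bowtie 0.12.3) and listed genes and tags past their own fold and false discovery limits. The study's methods name genes of grapevine, poplar and Arabidopsis as that reference, whereas the deposited IDs are unigene numbers, so which sequences were used is not settled here. The deposited tables give, per gene or tag, counts of clean tags and the same as TPM, tags per 1000000 clean tags. Their fold, p-value and false discovery columns were not used. Library totals were taken from count over TPM. Ratios of counts per total carry exact conditional 95% intervals (SciPy 1.17.1). With no replicate, no p-value is given per gene. Alternatives were TMM factors and an exact test at an assumed variation (edgeR 4.0.16), size factors (DESeq2 1.42.0), count and fold limits, hit quality and single tags. Genes named were, by rule, the 10 largest rises and falls with at least 10 tags in both libraries and an informative best hit, the 6 highest at 0 in either library, and per list the largest rise, largest fall and most abundant gene (all of lists up to 5); further members named were picked after their values were seen. The members and 38 keyword lists were chosen with earlier results of these data known. The interval step was tested on simulated data.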

Additional observations from a re-analysis of the deposited data

Results flagged for a closer look

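A signal outside the gene counts was higher in FS than in CON. The listed tag with the most counts in FS matched no gene and was counted 92808 times in FS, 2055 in CS and 2344 in CON, or 0.779% of clean tags in FS and 0.0203% in CON. Capitals mark its CATG.
Unmatched tag: CATGtcggactgtagaactct
Its bases after CATG read as the opposite strand of an adapter of the tag kit, as general knowledge of that kit has it. In all, 140 listed tags shared the CATG and the next 8 bases; none of them fell, and they summed to 103239 counts in FS and 2861 in CON. Leaving them out of the library totals raised every log2 ratio by 0.01.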

How the results depend on the processing

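The share of listed genes higher in FS was 54.5% with edgeR TMM factors over the listed genes, which moved every log2 ratio by -0.11, 36.5% (1021 genes) with DESeq2 size factors, 53.7% when the higher library had to hold 30 tags and 53.9% without genes at 0. By construction, these factors were taken over a table that holds only changed genes. When a log2 change of 2 was asked for, there were 1108 rises, 367 falls and 75.1% higher. Under an assumed coefficient of variation of 0.2 there were 913 rises, 373 falls and 71.0% higher, and under 0.4 there were 118, 4 and 96.7%. For tags the share was 54.9% with TMM factors, 49.6% with at least 30 tags and 47.9% without tags at 0, and the log2 limit of 2 gave 4315 rises, 2629 falls and 62.1% higher. Without the 140 tags given above, chosen after seeing the data, 7942 tags rose and 7687 fell, and genes stayed at 2278 rises with 1743 falls past the fold limit. Of the 126 named genes, 3 turned under the DESeq2 factors, to log2 ratios of -0.024 (translation initiation factor, Unigene33323), -0.088 (Unigene51440, a zeta-carotene desaturase) and -0.10 (IAA13). From the single most abundant sense tag, 20 of 112 named genes fell outside their interval, none of them with another direction. The ratio moved by more than 1.5 times in 13 of them, each given in the report. The share of a list stayed within its counting interval in 34 of 39 lists with best hits of an E-value of at most 1e-20, and in 38 of 39 under the limit of 30 tags. No paired analysis was possible because each condition has 1 library. Depth limits the genes at 0, whose ratios rest on the floor of 3 tags.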

Other observations

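Genes with copper in their name or cargo were gathered after their values were seen, so their directions are a description. Of 9 such genes 5 fell: plastocyanin, the superoxide dismutase copper chaperone, both chloroplast-targeted copper chaperones and COX19, all given in the report. The 4 that rose were a dicyanin, with 46 tags in FS, 58 in CS and 4 in CON, and 3 multicopper oxidases, with 178 in FS, 210 in CS and 34 in CON (Unigene1265), 361 in FS, 32 in CS and 140 in CON (Unigene992), and 274 in FS, 99 in CS and 108 in CON (Unigene60186). The 9 genes summed to 340 TPM in FS and 1343 TPM in CON. Plastocyanin alone gave 222 TPM in FS and 1115 TPM in CON, so the sum mostly reflects that gene.

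The gene with the largest rise by log2 ratio among those with at least 10 tags in both libraries had no informative hit. Unigene116038 had 6383 tags in FS, 3284 in CS and 88 in CON (log2 ratio 6.14, 5.84 to 6.46). Its main tag is shown, with the CATG in capitals.
Unigene116038: CATGaccaggatgaagcttgg
That tag was counted 6110 times in FS, 3073 in CS and 78 in CON. Unigene38023, whose best hit is a hypothetical protein of an orchid, had 357 tags in FS, 137 in CS and none in CON, while a tag on its opposite strand, shown next with the CATG in capitals, had 7671 in FS, 3708 in CS and 23 in CON.
Unigene38023, antisense: CATGgggacgtaaaaaaggaa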
